A study of Homo sapiens and Mus musculus with 21 samples.

Results

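Adenosine-methylation sites mapped by miCLIP in HEK293T, an immortal cell line of human embryonic kidney origin, were compared between wild type and knockouts of PCIF1. All 3 HEK293T miCLIP libraries of the series' 21 libraries were used: 1 wild type (WT) and 2 labelled PCIF1 KO (KO1 and KO2). Every library came from polyadenylated RNA precipitated with the same anti-m6A antibody, with no treatment named. The labels do not say whether KO1 and KO2 are separate clones or separate cultures of 1 clone, so the gap between them may be technical. RNA level was read in the input libraries of the ribosome profiling, labelled cytoplasmic RNA, with 2 from WT and 3 from PCIF1 KO. Each miCLIP list gives single positions in a DRACH motif, the 5-base context of m6A, with the reads at the position and the reads that carry the substitution left by the crosslinked antibody. A gene was a member if it held a site in any of the 3 lists: 11315 of 38212 coding and lncRNA genes did, 10572 of them coding and 743 lncRNA genes.

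m6A is placed inside transcripts by a nuclear writer complex built around METTL3 and METTL14, mostly near stop codons and in last exons, and is read by YTH and IGF2BP proteins. PCIF1 binds the phosphorylated tail of RNA polymerase II and methylates the first transcribed adenosine next to the cap, giving m6Am. The same antibody binds both marks, so a list of internal motifs is mainly a readout of the other writer, and positions beside a transcript start can also carry signal from the cap.

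Positions inside putative m6Am regions are shown first. These regions are counted wherever they lie, and some, as in PCIF1 below, are not beside an annotated start. The study's strict list of putative m6Am regions holds 2360 regions, and the labels tie it to the WT library. Inside these regions lay 101 sites of the WT list, 37 of KO1 and 45 of KO2. Because the regions are tied to the WT sample, more WT sites there may follow from their choice, which was not tested. For 9 genes, a region position within a RefSeq start window (GRCh38.p14) had at least 5 substituted reads in WT and was in neither KO list. The 4 with the most substituted reads are printed, with a position in XIST that all 3 lists hold for contrast. The 30 bases are written 5′ to 3′ on the gene's strand with the DRACH motif in capitals. The third base of the motif is the adenosine that would be methylated. The files list the base after it, the C of the motif, at all 600 positions checked inside RefSeq start windows, and coordinates and distances of single positions refer to that C.

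ZRANB2, chr1:71081021-71081050, minus strand: ccgttttcctcctgtgaAGACAtagctgcg
SMC4, chr3:160399659-160399688, plus strand: tgaaggacccggagccgAAACAccggtagg
DDX3X, chrX:41334182-41334211, plus strand: agagggccttcgcggtgGAACAaacactcg
RPS15, chr19:1438360-1438389, plus strand: tgccggcagtctcgcgaTAACTgcgcaggc
XIST, chrX:73852669-73852698, minus strand: cggggctggaagcttccTGACTgaagatct

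In ZRANB2, which encodes a splicing regulator, the position 5 bases after the annotated start had 29 substituted of 86 reads in WT. SMC4, a condensin subunit, had 9 of 464 reads, DDX3X, a DEAD-box helicase, had 7 of 185, and RPS15, a small-subunit ribosomal protein, had 6 of 243. The other members of this group were COX7C, HDGF, RPL41, SLU7 and UBL5, each with 5 substituted reads in WT. At the same minimum, 1 position in ATP5MG (6 of 24 reads) was in the KO1 list alone and 1 in CTSC (5 of 15) in the KO2 list alone. The XIST position had 36 of 1891 reads in WT, 42 of 794 in KO1 and 26 of 555 in KO2. A position missing from a list is not listed there, which does not show that it had no substituted read.

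WT held 43663 sites, KO1 40768 and KO2 47644, and 94.7%, 94.3% and 94.5% of them could be named by 1 gene. A site had a median of 30 reads in WT, 37 in KO1 and 42 in KO2, and sites with just 2 substituted reads made up 34.5%, 28.5% and 27.2% of the lists. GGACA was the most frequent motif, with 15.3%, 15.6% and 15.6% of sites, and GGACT had 13.4%, 13.5% and 13.4%. In coding genes with a known strand, 42.8% of WT sites, 44.4% of KO1 sites and 43.4% of KO2 sites lay in the last 10% of the gene span. The first 10% held 6.51%, 5.63% and 5.91%. Of the HEK293 markers, IRS4, an insulin receptor substrate, had 69, 58 and 60 sites, SALL2 had 11, 9 and 13, and NEFM, a neurofilament subunit, had 5, 0 and 0. The whole list of 8 markers had 94, 72 and 91 sites in 6, 4 and 6 members, and per 10000 listed sites WT lay above both KO lists by more than their own gap. The 11 blood and endothelial markers had 0, 0 and 1 sites, and the 12 fibroblast markers had 8, 1 and 2.

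PCIF1 itself had 2 sites in WT with 148 reads, 1 site in KO1 with 8 reads and 1 site in KO2 with 5 reads. The WT positions, chr20:45947710 and chr20:45947799 on the plus strand, lie near the far end of the gene and inside a listed m6Am region. At the first, 4 of 63 reads were substituted in WT and 2 of 5 in KO2, and it was not in the KO1 list. At the second, 10 of 85 reads were substituted in WT, and neither KO list held it. The KO1 site lies at another position, so the read sums cover different positions and only the first can be compared, between WT and KO2. The RNA level of PCIF1 in the input libraries is not analysed here, since the files pair only some Ensembl identifiers with names.

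Most genes with sites were listed with and without PCIF1. Of the 11315 genes, 7360 (65.0%) had a site in all 3 lists, with a median of 12 sites over the 3. Sites in WT alone were found in 660 genes, against 577 for KO1 alone and 700 for KO2 alone, and 536 of the 660 rested on 1 site. Both KO lists without WT held 619 genes, while WT with KO1 held 569 and WT with KO2 held 830. The number of genes private to WT thus lay between those private to each KO library.

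The genes richest in sites held many sites in each of the 3 libraries. XIST, the long noncoding RNA that silences an X chromosome, had 99 sites in WT, 101 in KO1 and 96 in KO2, and its pooled substituted share (substituted reads over all reads at its sites) was 3.27%, 3.35% and 3.32%. SPEN, a transcriptional repressor that binds XIST, had 87, 60 and 88 sites. MKI67, the Ki-67 proliferation antigen, had 80, 54 and 83. In both of these genes KO1 was low while WT and KO2 lay close together. SON and SRRM2, scaffold proteins of nuclear speckles, had 58, 51 and 68 and 53, 47 and 64 sites. The lncRNA TUG1 had 52, 46 and 53. NSD1, a histone H3 lysine methyltransferase, had 46, 52 and 47, and the kinetochore protein CENPF had 45, 41 and 49. KMT2D, another histone methyltransferase, had 44, 30 and 46, and KO1 was again low.

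To compare genes between lists of different length, site numbers were scaled to 10000 listed sites, with 0.5 added to each number for folds. Among the 4481 genes with at least 10 sites over the 3 lists, WT was at least 2-fold above each KO list for 72 genes (1.61% of genes tested) and at least 2-fold below each for 135 (3.01%). With 1 WT library there is no test of the genotype: the smallest two-sided p that an exact permutation of 1 against 2 libraries can give is 0.333. The spread was therefore read from the KO pair. WT and KO1 were at least 2-fold apart for 675 genes (15.1%), WT and KO2 for 627 (14%), and KO1 and KO2, which share the genotype, for 589 (13.1%). Genes apart between genotypes were thus about as frequent as genes apart within the knockout. The gaps ran both ways: WT was the higher for 8.15% and the lower for 6.92% of genes against KO1, and for 7.1% and 6.9% against KO2, while KO1 was higher than KO2 for 7.05% and lower for 6.09%. WT lay above both KO lists by more than their own gap for 627 genes (14%) and below both for 856 (19.1%). Over the same genes, Spearman's rank correlation of site numbers was 0.58 between WT and KO1, 0.63 between WT and KO2 and 0.60 between KO1 and KO2, a description across genes, which are not replicates. The counts fell when sparse sites were left out: with only sites of at least 5 substituted reads, 12 genes were lower and 29 higher in both KO lists. The minimum of 10 sites was applied again to those sites, so fewer genes were tested and these are not counts out of 4481. Against a single KO list (without KO1 or without KO2) 318 and 365 were lower.

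**Figure D1:**
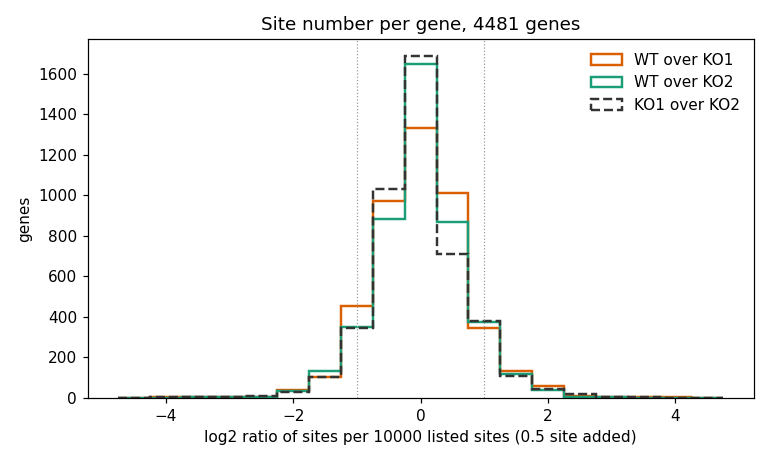
Distribution over 4481 genes of the log2 ratio of sites per 10000 listed sites (x axis, 0.5 site added) against the number of genes (y axis), for WT over KO1, WT over KO2 and KO1 over KO2. Dotted lines mark 2-fold; 15.1%, 14% and 13.1% of genes lie at or beyond them, so the curves that cross genotypes are about as wide as the curve within the knockout.

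Genes with fewer sites in both KO lists were led, among genes with at least 20 sites, by MID1, a microtubule-associated ubiquitin ligase. It had 15 sites in WT, 3 in KO1 and 4 in KO2. At its strongest WT position, chrX:10446127 on the minus strand in the motif agACa (methylated adenosine and next base in capitals), 11 of 62 reads were substituted, and neither KO list held the position. The MID1 position chrX:10567526 was in all 3 lists, with 5 of 40, 2 of 20 and 2 of 16 reads substituted. CLSPN, the replication checkpoint adaptor claspin, had 19, 5 and 8 sites. Its position chr1:35764531 was in all 3 lists, with 6 of 76, 7 of 94 and 6 of 89 reads substituted, values that differ little between the libraries. FAM171B had 13, 3 and 4 sites. SYNRG, a clathrin adaptor partner, had 15, 5 and 5, and AP2B1, the beta subunit of the AP-2 clathrin adaptor, had 11, 4 and 5. IGSF3 had 15, 5 and 6 and PPP1R9B, the phosphatase scaffold spinophilin, 13, 5 and 5. SETD1B, a histone H3 lysine methyltransferase, had 13, 5 and 6 sites, but with only sites of at least 5 substituted reads it lay below the KO mean. With those sites the log2 ratio of WT over the KO mean was 0.93 for FAM171B and 0.81 for AP2B1, under 2-fold. In all 8 genes WT lay above both KO values, as the rule requires. At the edge of the 2-fold rule, TMEM186 with 7, 3 and 3 sites was inside and GOLPH3L with 9, 4 and 3 was outside.

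Genes with more sites in both KO lists were led, among genes with at least 20 sites, by MORN1, with 3 sites in WT, 13 in KO1 and 14 in KO2. None of its positions had 5 or more substituted reads in any list, so its place rests on sparse sites alone. LUC7L2, a U1 snRNP-associated splicing factor, had 2, 8 and 11, and with only sites of at least 5 substituted reads it lay above the KO mean. ZRANB1, a deubiquitinase, had 4, 15 and 12. Its position chr10:124942954 on the plus strand (ggACt) was in all 3 lists with 6 of 110, 5 of 164 and 6 of 127 reads substituted, while chr10:124942784 (gaACt) had 9 of 68 in KO1 and 5 of 76 in KO2 and was not listed in WT. ARHGEF12 had 3, 9 and 11 sites. DHX36, a helicase that unwinds G-quadruplexes, had 4, 10 and 12. PCSK6, a proprotein convertase, had 3, 8 and 11. ANKS6 had 5, 12 and 16 and C19orf25 had 3, 7 and 10. With only sites of at least 5 substituted reads the log2 ratio of WT over the KO mean was -0.97 for DHX36 and -0.035 for C19orf25, under 2-fold. At the edge of this rule, ADAMTS17 with 2, 5 and 5 sites was inside and AGAP1 with 3, 6 and 11 was outside.

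**Figure D2:**
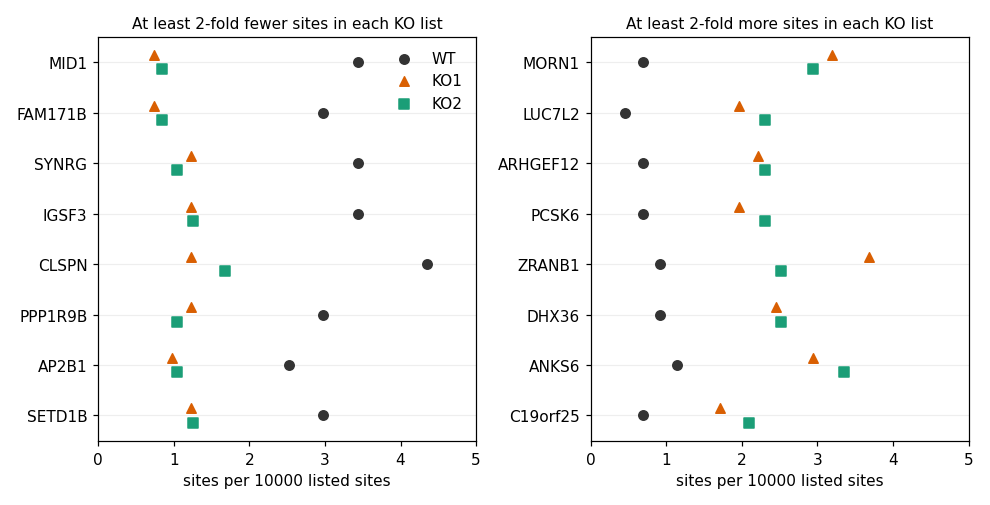
Sites per 10000 listed sites (x axis) in WT, KO1 and KO2 for the 8 genes farthest above and the 8 farthest below both KO lists, among genes with at least 20 sites. The KO symbols sit close together and the WT circle apart, as the choice of these genes requires: MID1 had 3.44 in WT against 0.74 and 0.84, and MORN1 0.69 against 3.19 and 2.94.

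Reads at positions held by all 3 lists leaned to the same side as the site numbers. The genes were chosen by site number in the same libraries, so this lean is not separate evidence. Of the 72 genes with fewer sites in KO, 35 had such a position. Their scaled reads were at a median of 0.81 times WT in KO1 and 0.88 times in KO2, with 20 of the 35 below WT in both and 8 above WT in both. Of the 135 genes with more sites in KO, 60 had such a position. Their medians were 1.16 and 1.08, with 32 above WT in both and 10 below. Over all 3424 tested genes with a shared position both medians were 1.01, with 999 below WT in both and 1147 above. Across these genes, which are not replicates, Spearman's rank correlation between the log2 ratio of site numbers and that of reads at shared positions was 0.24 for KO1 over WT and 0.15 for KO2 over WT.

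Some genes were listed in WT alone or in the knockouts alone. SEC14L1, a lipid-transfer protein, had 8 sites and 197 reads in WT and none in either KO list. NEFM had 5 WT sites, and IVNS1ABP, TLCD2 and ZFPM2 had 4 each. The sites of IVNS1ABP had 2 substituted reads each, the minimum of the lists, and those of TLCD2 and ZFPM2 had 2 or 3. In the other direction, VPS13A, a bridge-like lipid transfer protein, had 9 sites in KO1 and 10 in KO2 and none in WT. PPARA, a fatty acid-sensing nuclear receptor, had 8 and 6, ZFR 4 and 8, the transcription factor FOXP2 7 and 4, and BLOC1S6 4 and 6. No position of FOXP2 or BLOC1S6 had more than 3 substituted reads in a list. NEFM's strongest position had 12 substituted of 46 reads in WT and the next 7 of 46, both inside an m6Am region. SEC14L1's strongest position had 4 substituted of 22 reads in WT, and VPS13A's had 6 of 37 in KO1. PPARA was held by both KO lists at chr22:46239978, with 2 of 5 reads substituted in each.

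Strong sites, those with at least 10 substituted reads, were mostly held by every list. Of 3168 named strong WT sites, 91.1% were in the KO1 list and 95.1% in the KO2 list, beside 94.6% of KO1's strong sites in KO2 and 88.6% of KO2's in KO1. Of all strong sites, 72 of 3273 in WT (2.20%), 63 of 3242 in KO1 (1.94%) and 164 of 4903 in KO2 (3.34%) were in neither other list. WT lay between the KO libraries in this share. The WT site with the most substituted reads among those 72, named after its value was seen, was at chr13:41131461 on the minus strand in KBTBD6, a kelch-like ubiquitin ligase adaptor. There 48 of 113 reads were substituted (42.5%, exact interval 33.2 to 52.1%), and the gene had 9 sites in each of the 3 lists.

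Of 61 families, 59 had at least 30 sites over the 3 lists, and 0 were 2-fold apart from both KO lists. WT was above both KO lists in 23 families, below both in 13 and between them in 23. Families at least 1.2-fold apart numbered 20 between WT and KO1, 7 between WT and KO2 and 13 between KO1 and KO2, so the gap within the knockout lay between those across genotypes. The median size of the log2 ratio over families was 0.15, 0.13 and 0.11 for the same pairs. WT lay beyond both KO lists by more than their own gap in 10 of the 59 families above and 8 below. Among single genes tested, with 0.5 added to each number, 14% lay above and 19.1% below by such a gap. When site numbers were not scaled to the length of the list, 3 families in all lay beyond the gap.

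The histone lysine demethylases, which remove methyl groups from histone tails, had 109 sites in WT, 81 in KO1 and 97 in KO2, or 25.0, 19.9 and 20.4 per 10000. WT was 1.26 times KO1 and 1.23 times KO2, with KO1 at 0.98 times KO2. KDM3B had 18, 11 and 13 sites, KDM2A 16, 11 and 12 and KDM5A 14, 6 and 10, but KDM6A had 10, 8 and 13. The exact 95% counting interval of the WT value, 20.5 to 30.1, reached those of KO1 (15.8 to 24.7) and KO2 (16.5 to 24.8). Protocadherins and cadherins, adhesion receptors, had 160, 118 and 151 sites, with FAT1 at 28, 20 and 35 and PCDH9 at 26, 12 and 21, and their direction turned when sites lying in several genes were counted for each and when only sites of at least 5 substituted reads were kept. The microRNA pathway had 79, 63 and 74 sites, with TNRC6A, a partner of Argonaute, at 20, 14 and 18. Kelch-like adaptors of ubiquitin ligases had 186, 156 and 179, and DEAD and DEAH helicases had 315, 283 and 337, 1.04 and 1.02 times the KO values.

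The list of the cap-binding complex eIF4F, which recruits ribosomes to mRNA, and its repressors stood farthest below both KO lists. It had 44 sites in WT, 54 in KO1 and 71 in KO2. The WT value was 0.76 times KO1 and 0.68 times KO2, with KO1 at 0.89 times KO2. For the scaled site numbers, the exact counting interval of WT, 7.32 to 13.5, reached those of KO1 (9.95 to 17.3) and KO2 (11.6 to 18.8). The scaffolds EIF4G1 and EIF4G3 had 11, 12 and 22 and 7, 16 and 16 sites. EIF4G2 had 6, 8 and 9, and the repressor EIF4EBP1 had 5, 7 and 7. Of these named members, EIF4G3 had the largest gap between WT and KO1, and the list without EIF4G3 was not tested. The wider list of translation initiation factors shares members with the eIF4F list. This wider list had 171, 167 and 206 sites, at 0.96 and 0.91 times the KO values. SR splicing factors had 57, 61 and 78 sites, with SRSF8 at 12, 12 and 17 and SRSF1 at 10, 9 and 5. E2F cell cycle factors had 27, 32 and 35. Both of these families lay above the KO mean when only sites of at least 5 substituted reads were kept. SOX factors had 50, 55 and 64 sites, most of them in SOX4 (28, 35 and 32).

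**Figure D3:**
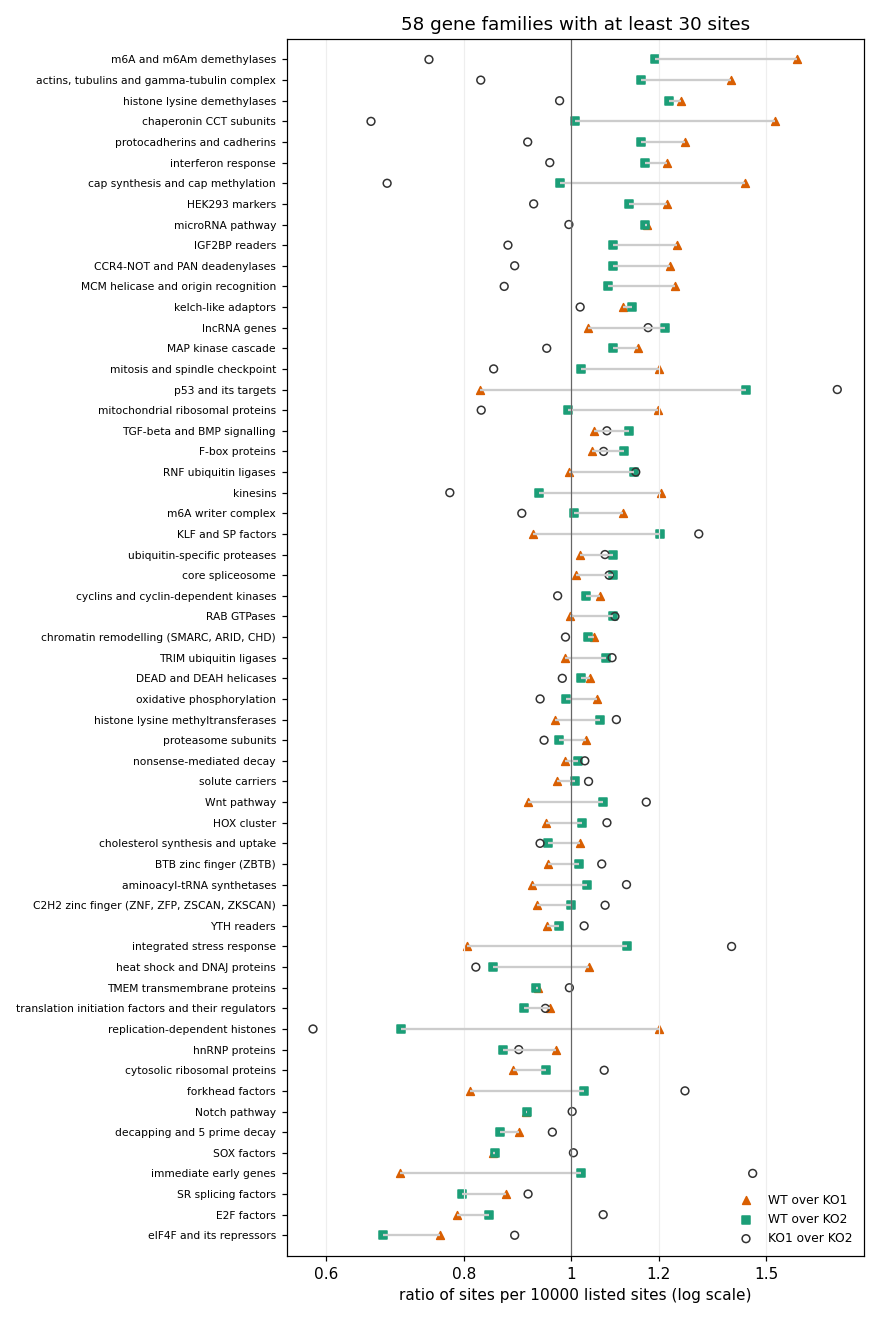
Ratio of sites per 10000 listed sites (x axis, log scale) for 58 gene families (rows, ordered by the mean of the WT over KO1 and WT over KO2 ratios), with the KO1 over KO2 ratio as open circles. The eIF4F list has the lowest mean of the ratios that cross genotypes, at 0.76 and 0.68, and the ratio between the KO lists is 1.74 for p53 and its targets.

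Some families were apart between the KO libraries. Immediate early genes, which respond fast to growth signals and stress, had 102 sites in WT, 136 in KO1 and 109 in KO2, and KO1 was 1.46 times KO2. JUN, the AP-1 subunit, had 31, 38 and 36 and ATF3 had 2, 8 and 3. Integrated stress response genes had 106, 123 and 103 sites, 1.40-fold higher in KO1 than KO2, with DDIT4 at 6, 13 and 10 and TRIB3 at 5, 10 and 4. The p53 list had 54, 61 and 41, with MDM2, the p53 ubiquitin ligase, at 13, 17 and 14. Per 10000 listed sites, WT lay between the KO values in all 3 lists, with 23.4, 33.4 and 22.9 for the immediate early genes.

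The large families of coding genes named here were less than 1.2-fold apart in each pair of lists. C2H2 zinc finger genes, many of them repressors of transposable elements, had 1784, 1790 and 1950 sites in 406 of 557 genes, or 409, 439 and 409 per 10000. Among their 204 tested members 3 (1.47%) were lower and 11 (5.39%) were higher in both KO lists, beside 1.61% and 3.01% of all genes tested. Their strong WT sites were in KO1 for 93.4% and in KO2 for 96.7%. HOX genes, which pattern the body axis, had 179, 176 and 191 sites, and all 25 of their strong WT sites were in both KO lists. Cytosolic ribosomal protein genes had 166, 175 and 191 sites with a low pooled share of 3.66% (exact interval 3.46 to 3.88%), 3.39% (3.22 to 3.58%) and 3.26% (3.10 to 3.43%). Histone lysine methyltransferases had 355, 343 and 365 sites and solute carriers 718, 690 and 778. Sites in lncRNA genes numbered 1172, 1057 and 1053, with WT 1.04 times KO1 and 1.21 times KO2, beside 1.17 between KO1 and KO2.

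Among the genes of the methylation machinery, the 9 of the m6A writer list had 105 sites in WT, 88 in KO1 and 114 in KO2. RBM15B and RBM15, adaptors that guide the complex, had 23, 14 and 23 and 17, 14 and 18, and WTAP had 14, 15 and 13. The YTH readers had 59, 58 and 66 sites, with YTHDF2 at 18, 16 and 19. The demethylase ALKBH5 had 7, 3 and 10 sites and FTO, which acts on both marks, had 5, 4 and 1. In these families WT did not lie beyond the KO lists by more than their gap.

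Genes with an m6Am region at their start held about as many sites in every list. The 1633 such genes with a site held 1585, 1541 and 1619 sites per 10000, and 1572, 1535 and 1612 once the sites inside the regions were left out. Of their 783 tested members, 1.15% had fewer sites in both KO lists and 2.30% had more, beside 1.71% and 3.14% of the 3634 tested coding genes without a region. The group with a region was not limited to coding genes.

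The substituted share per gene was also similar. Over all sites it was 7.29% in WT (exact interval 7.26 to 7.32%), 7.17% in KO1 (7.13 to 7.20%) and 6.69% in KO2 (6.67 to 6.72%). At the 11576 positions held by all 3 lists it was 6.46%, 6.43% and 6.30%. Reads are not independent molecules, so these intervals cover counting error only. Over the 4551 genes with at least 300 reads and a site in every list, the median share was 8.20% in WT, 7.95% in KO1 and 7.39% in KO2. WT exceeded KO1 by a median of 0.14 percentage points and KO2 by 0.54, while KO1 exceeded KO2 by 0.46. WT and KO1 differed at least 2-fold for 6.77% of genes, WT and KO2 for 5.43%, and KO1 and KO2 for 5.91%. WT was at least 2-fold above each KO list for 69 genes (1.52%) and below each for 17 (0.374%). By any amount, WT was above both KO lists for 40.3% of genes and below both for 27.4%.

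RPS3, a small-subunit ribosomal protein, had a share of 8.45% in WT (exact interval 5.49 to 12.3%), 3.25% in KO1 (1.94 to 5.10%) and 2.46% in KO2 (1.63 to 3.56%). At its position chr11:75404809, held by all 3 lists, the shares were 7.33%, 4.72% and 5.36%, and KO sites at chr11:75404093 with a low share were not listed in WT. ZRANB2 had 18.3% in WT (13.4 to 24.0%), 6.58% in KO1 (4.34 to 9.50%) and 7.65% in KO2 (5.59 to 10.2%), with the start position printed above holding 29 of its substituted WT reads. At chr1:71063616, held by all 3 lists, ZRANB2 had 6.12%, 7.55% and 7.69%. ZNF35 had 16.0%, 6.44% and 6.68%, ZMYND19 13.4%, 5.35% and 4.57%, and PAXIP1, a subunit of a histone methyltransferase complex, 18.2%, 6.00% and 7.81%. In the other direction, TUBA1B, an alpha-tubulin, had 2.65% in WT (1.99 to 3.46%), 4.91% in KO1 (3.40 to 6.83%) and 5.38% in KO2 (4.10 to 6.91%). Its position chr12:49131346, inside an m6Am region, had 1.63% of 1105 reads in WT, 4.55% of 198 in KO1 and 4.33% of 439 in KO2. ADIPOR1, KRI1, LRATD2 and GPR107 had 3.12% to 5.30% in WT and 5.49% to 10.9% in the KO lists. These shares pool the sites each list holds, so a position listed in 1 library alone moves the value.

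**Figure D4:**
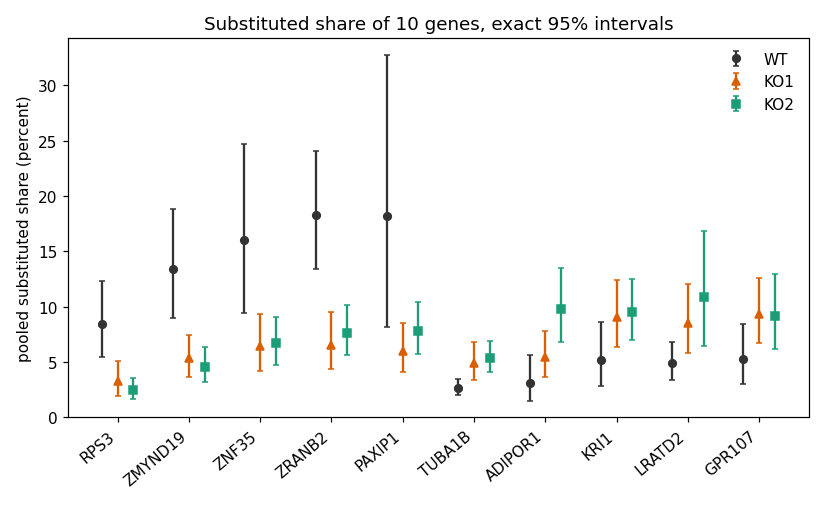
Pooled substituted share in percent (y axis) of the 5 genes farthest above and the 5 farthest below both KO lists, with exact 95% binomial intervals as bars, for WT, KO1 and KO2. ZRANB2 had 18.3%, 6.58% and 7.65%, and TUBA1B 2.65%, 4.91% and 5.38%; the genes were chosen for this gap.

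RNA level was compared where the files name the gene. In the input libraries (4511687 to 5960674 counts), edgeR's quasi-likelihood test with Benjamini-Hochberg adjustment called 5 of 14629 genes (0.0342%), and 1360 (9.3%) had an unadjusted p under 0.05. Of the genes with sites, 1314 could be named there and 0 were called, with 176 at an unadjusted p under 0.05 and 1 called by DESeq2. Of the 72 genes with fewer sites in both KO lists, 11 could be named there, and the others were not compared. The 11 had a median log2 fold change (KO over WT) of 0.03, from -0.52 to 0.40. By edgeR or DESeq2, 0 were called (2 at an unadjusted p under 0.05). Of the 135 genes with more sites, 22 could be named. The 22 had a median of -0.02, from -0.34 to 0.47, and 0 were called by either tool (2 unadjusted). The median over the 1314 genes was 0.01. Without WT replicate 2, 4 of the 11, 4 of the 22 and 347 of the 1314 genes were called. WT is then 1 library, assumed to vary like the KO libraries.

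AP2B1 had 360 and 270 CPM in WT and 224, 236 and 216 in KO. All KO values lay below both WT values, and the log2 fold change was -0.52 (SE 0.12, edgeR adjusted p 0.36, or 4.6e-04 with no filter on low counts and 6.9e-10 without WT replicate 2, where WT is 1 library with an assumed spread). SEC14L1, listed in WT alone, had 245 and 239 CPM in WT and 202, 182 and 203 in KO, a log2 fold change of -0.34 (SE 0.10, edgeR adjusted p 0.449, or 0.0108 without WT replicate 2, with the same assumption). VPS13A, listed in KO alone, had 19.2 and 29.5 CPM in WT and 29.2, 34.4 and 23.2 in KO, and the groups overlapped (log2 fold change 0.23, SE 0.22, edgeR adjusted p 0.766). ZFR and ARHGEF12 had log2 fold changes of 0.02 and -0.04. RPS3 and TUBA1B, whose shares differed, had 0.04 and 0.04. None of these genes passed the threshold with all 5 libraries and the filter.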

How the data were processed

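Each deposited m6A list holds, per the file headers and names, DRACH positions with read counts (k) and substituted read counts (m, repeated as the score column), called by the authors for each library. BWA 0.7.17, STAR, bedtools and deepTools are in the submitters' processing notes without roles, with builds GRCh38 and hg38. The score of an m6Am region in the deposited strict list was not used. Input RNA is deposited as whole-number counts per gene, 1 column per library, with 0 columns left over. Family and gene lists were chosen with earlier results of these data known.

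A site was named by the 1 RefSeq gene (GRCh38.p14) whose span holds it, coding before lncRNA, on its strand where known (15757 of 19947 coding genes). The table gives 1 span per gene. Families needed 30 sites, shares 300 reads. The values of 1 family are not reported here. Named genes were PCIF1, the 10 with most sites, the 8 farthest from both KO lists each way (20 sites or more), the 5 with most sites in WT alone or in both KO alone, the 5 with the farthest shares each way (1000 reads or more), and up to 3 members a family. Other family members and positions were named after their values were seen. Counts were tested with edgeR 4.0.16 (TMM, filterByExpr, quasi-likelihood F test) and DESeq2 1.42.0 as an alternative, in R 4.3.3. Other steps used Python 3.11.15 with pandas 2.3.3 and scipy 1.17.1. Scripts were tested on simulated data. Intervals are exact (Clopper-Pearson, 95%). Whether input replicates came from separate cultures is not in the labels, and their p-values may thus reflect technical spread alone.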

Additional observations from a re-analysis of the deposited data

How the results depend on the processing

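With a fold of 1.5, 253 genes were lower and 383 higher in both KO lists, with 1514, 1429 and 1617 genes apart for WT and KO1, WT and KO2, and KO1 and KO2. With a fold of 3 these counts were 6, 46, 181, 157 and 181, with no minimum of sites 957, 852, 3999, 3910 and 3753, and with a minimum of 20 sites 9, 22, 130, 115 and 118. Sites of at least 3 substituted reads gave 34 lower genes and 425, 334 and 338 apart, and of at least 5 gave 12, 29, 192, 117 and 167. A change in the minimum of sites or of substituted reads also changes how many genes were tested. Against 1 KO list (without KO replicate 1 or 2), 318 to 365 genes were lower and 309 to 310 higher. The median log2 ratio of WT over the KO mean was -0.02. It was -0.032 with a minimum of 20 sites, 0 with no scaling, -0.0016 with median-ratio scaling, 0.028 with sites of at least 5 substituted reads and -0.099 to -0.024 without 1 KO replicate. Families beyond the KO gap numbered 18, 3 with no scaling and 11 with sites of at least 5 substituted reads. With those sites the log2 ratio of WT over KO turned for SR splicing factors (0.11), chromatin remodelling (-0.021), E2F factors (0.12), the Notch pathway (0.17), protocadherins (-0.42, and -0.040 with sites in several genes counted for each), the interferon response (-0.14), SETD1B (-1.26) and LUC7L2 (0.27). Leaving out sites inside m6Am regions, chosen after seeing the data, gave 71 lower and 135 higher genes. The median share difference of WT over the KO mean, 0.26 percentage points, was 0.10 at positions in all 3 lists and 0.14 to 0.54 without 1 KO replicate.

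For input RNA, 5 genes were called, 152 with no filter, 15 by DESeq2 and 2 to 1912 without 1 replicate (1912 without WT replicate 2, where the lone WT library is assumed to vary like the KO libraries). With the replicate number as a block 3 were called. Same-numbered libraries correlated at 0.16 and -0.0029 in their deviations from the group means. With 2 WT libraries the WT deviations mirror each other, so these values do not settle whether the numbers pair the samples. Changes near 0 turned sign: with the replicate block RPS3 (-0.038), ARHGEF12 (0.022) and TUBA1B (-0.017). Without 1 replicate, the log2 fold change ranged from -0.027 to 0.57 for VPS13A, -0.15 to 0.11 for ARHGEF12, -0.22 to 0.044 for SRRM2, -0.38 to 0.056 for SON, -0.10 to 0.12 for ZFR and -0.019 to 0.094 for RPS3. The cause of these moves was not tested. WT rests on 1 miCLIP library, and with a median of 30 to 42 reads a site, many sites lie near the minimum of 2 substituted reads.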
